A study of Gallus gallus with 50 samples.

Results

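Cytosolic ribosomal protein genes were followed in the small intestine of broiler chickens fed lysophospholipid supplements. A gene was a member when a probe set with a single gene symbol carried the name of a protein of the large subunit (RPL), the small subunit (RPS) or the stalk (RPLP0, RPLP1, RPLP2). Kinases with RPS symbols were left out, and each gene was read by its probe set with the highest mean over all arrays. This gave 66 genes of 13009 with such a probe set, made up of 35 large-subunit genes, 22 small-subunit genes, 3 stalk genes and 6 paralogues (RPL22L1, RPL26L1, RPL39L, RPL3L, RPL7L1 and RPS27L). Of the 66 members, 32 had a single probe set and 34 had more, up to 7. No member was removed for low signal, and all 66 symbols were found in a current chicken gene table. RPSA, RPL10, RPL26, RPL39 and RPS27 were not analysed here.

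Mucosal cells were scraped from the jejunum and the ileum of male Cobb 500 broilers on day 10, and total RNA was hybridised to the Affymetrix chicken genome array. The diets were LPC low (9.5 g/T of lysophosphatidylcholine, given as 500 g/T of purified LPC with its carrier), LPC high (19 g/T of LPC in 1000 g/T), lysolecithin low (9.5 g/T of LPC in 250 g/T of lysolecithin), lysolecithin high (19 g/T of LPC in 500 g/T) and a control feed with no supplement. LPC is a membrane lipid that keeps a single fatty acid chain and emulsifies fat, and lysolecithin is the mixture from which this LPC was purified. Each diet had 5 birds, each bird gave 1 jejunum and 1 ileum array, and the 50 arrays fell into 3 labelled batches that each held birds of every diet. The 125 chicks were kept in adjoining pens of 25, and because the labels do not tie feeds to pens, pen and feed cannot be told apart. Values are log2 signals, differences are log2 differences, and the 4 comparisons with control share the same 5 control birds.

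Each cytosolic ribosome joins a large and a small subunit, in which the ribosomal proteins hold and shape the ribosomal RNA. The small subunit reads the messenger RNA and the large subunit joins amino acids, while the stalk recruits translation factors. Many ribosomal protein messengers begin with a pyrimidine-rich tract (TOP) that places their translation under mTORC1, and in the gut ribosome production is prominent in the dividing cells of the crypts.

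All but 4 arrays scored on the side of the segment on their label. A score of 15 jejunum-biased minus 15 ileum-biased genes, chosen on the other birds and without members, had a median of 2.12 in jejunum and -4.68 in ileum arrays. The cut lay halfway, at -1.28. Just above it were jejunum control replicate 1 (-0.6) and jejunum LPC low replicate 1 (-0.84), whose bird also gave ileum LPC low replicate 1. Against their labels stood jejunum control replicate 2 (-4.85), jejunum LPC low replicate 4 (-5.92), ileum LPC low replicate 1 (3.77) and ileum lysolecithin high replicate 4 (3.86), although in all 25 birds at least 1 array was closest to its bird's other array. In the main fits, members' median differences that rest on these 4 arrays are given with and without them. Correlations, single-gene differences, unadjusted counts, F-tests and marker values are given with all arrays. The mean of 10 enterocyte markers lay between 11.64 and 12.69 on every array, and that of 4 pancreas markers stayed between 3.8 and 4.22 in the control and lysolecithin low groups. The 5′ probes minus the 3′ probes of 3 control transcripts gave an index that falls with RNA degradation or incomplete labelling. It averaged -0.46 to -0.72 in the supplemented jejunum groups, against -0.97 ± 0.14 in jejunum control (SD, n = 5), and -0.55 to -0.70 in the supplemented ileum groups, against -0.80 ± 0.14 in ileum control (SD, n = 5).

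Ribosomal protein genes moved together from bird to bird. After diet and batch were removed, the 2145 pairs of members had a median Pearson correlation of 0.81 over the 25 jejunum arrays and 0.74 over the 25 ileum arrays. The same median over all 13009 genes was 0.0 in either segment. Correlations were above 0.5 for 88.6% of member pairs in jejunum and 80.9% in ileum, against 5.06% and 5.29% of pairs of all genes. These points share arrays, normalisation and brightness, so the correlations describe these arrays only. RPS27A, made as a fusion with ubiquitin, followed the mean of the other members most closely in jejunum (r = 0.98). A few members did not follow it. RPL3L, a paralogue of RPL3 that mammals use in muscle, had r = -0.27 in jejunum and 0.12 in ileum. Its probe set averaged 3.81, below the median of 4.65 over all probe sets. RPS13, a small-subunit protein, was read by a probe set averaging 4.76 and had r = 0.37 and 0.01, and a brighter RPS13 probe set that carries a further symbol was left out by the rule. By contrast, RPL31, a large-subunit protein with a mean of 5.53, followed the mean of the other members, at r = 0.89 and 0.71. The paralogues RPL22L1 and RPL7L1 followed less closely, at r = 0.61 and 0.59 in jejunum and 0.45 and 0.41 in ileum. RPS27L, a paralogue of RPS27 that p53 induces in human cells, had a bright probe set (mean 12.25) and still r = 0.25 and 0.09.

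**Figure D1:**
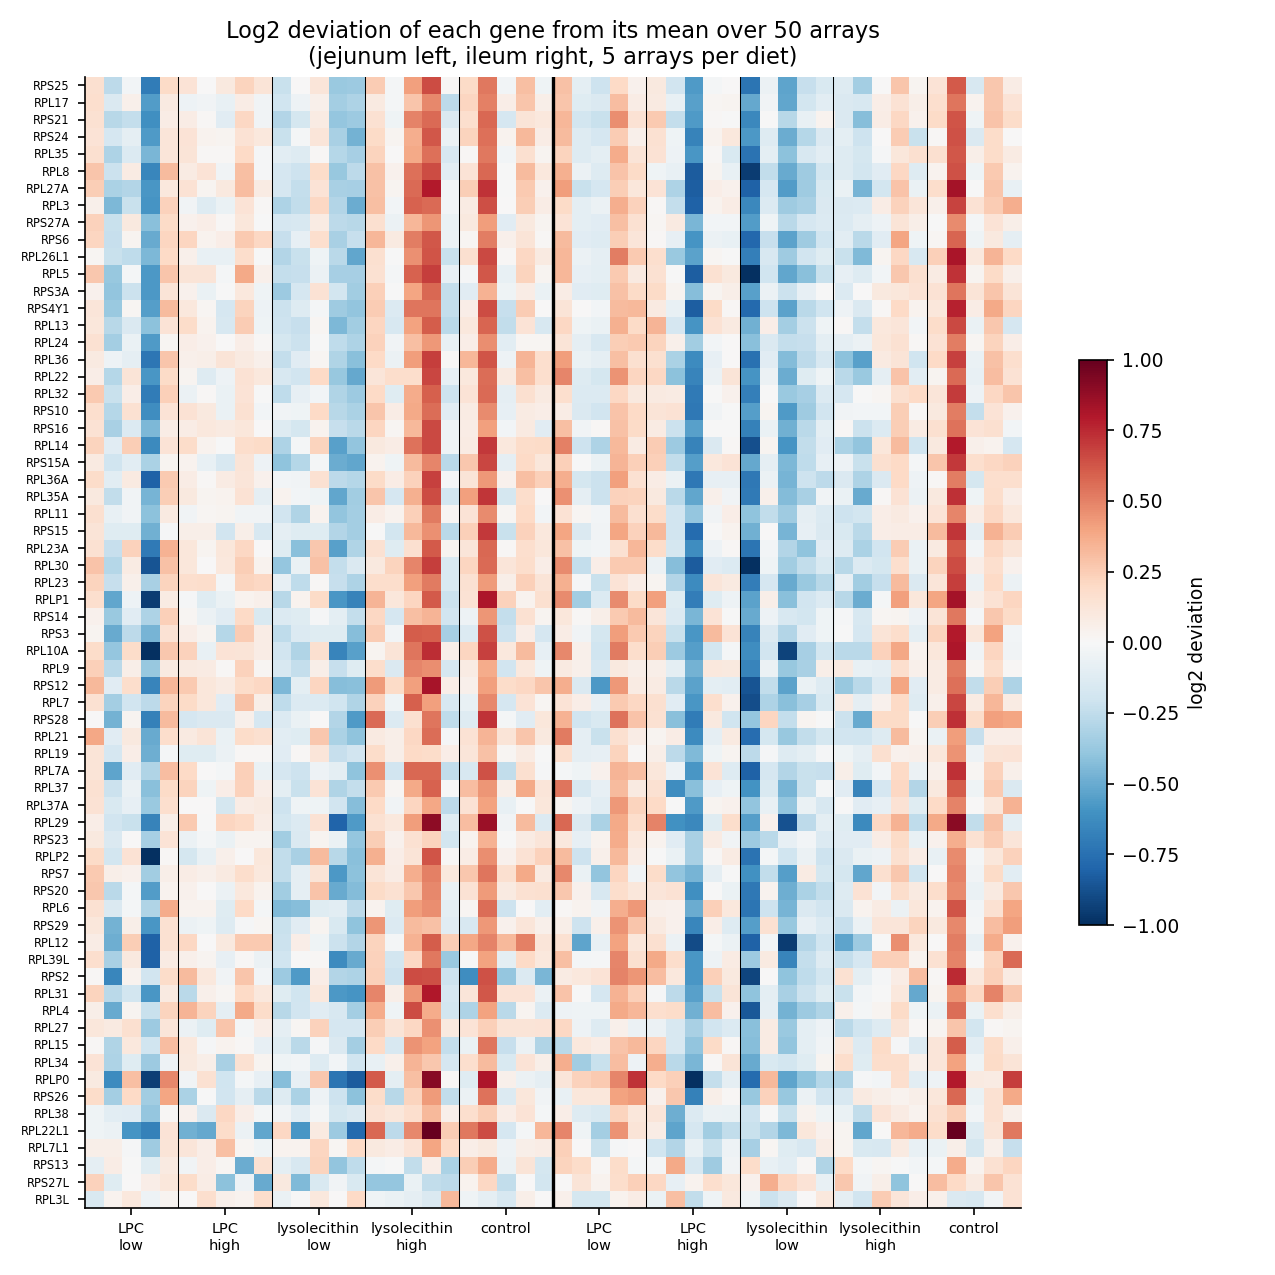
Log2 deviation of each of the 66 ribosomal protein genes (rows) from its own mean over the 50 arrays (columns, jejunum left and ileum right, 5 arrays per diet in replicate order). Rows are ordered by how closely they follow the other members. Whole columns are red or blue together, as in ileum control replicate 2 and ileum lysolecithin low replicate 1, and the bottom rows, RPS27L and RPL3L among them, do not take part.

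The summed picture per array placed the ileum of birds fed lysolecithin low at the bottom. The mean of the 66 members in ileum was 11.16 ± 0.19 on LPC low, 10.94 ± 0.27 on LPC high, 10.77 ± 0.22 on lysolecithin low and 11.02 ± 0.15 on lysolecithin high, against 11.25 ± 0.23 on control (SD, n = 5 each). On lysolecithin low it ran over the birds between 10.45 and 10.98, and on control between 11.03 and 11.63, so these groups did not overlap. In jejunum the mean was 10.95 ± 0.29 on LPC low, 11.08 ± 0.05 on LPC high, 10.86 ± 0.17 on lysolecithin low and 11.24 ± 0.26 on lysolecithin high, against 11.19 ± 0.21 on control (SD, n = 5 each). The highest jejunum control array, at 11.55, was replicate 2, and the lowest LPC low array, at 10.53, was replicate 4, both of which stood against their segment label. In such scrapings fewer cells of a type and less RNA per cell cannot be told apart.

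**Figure D2:**
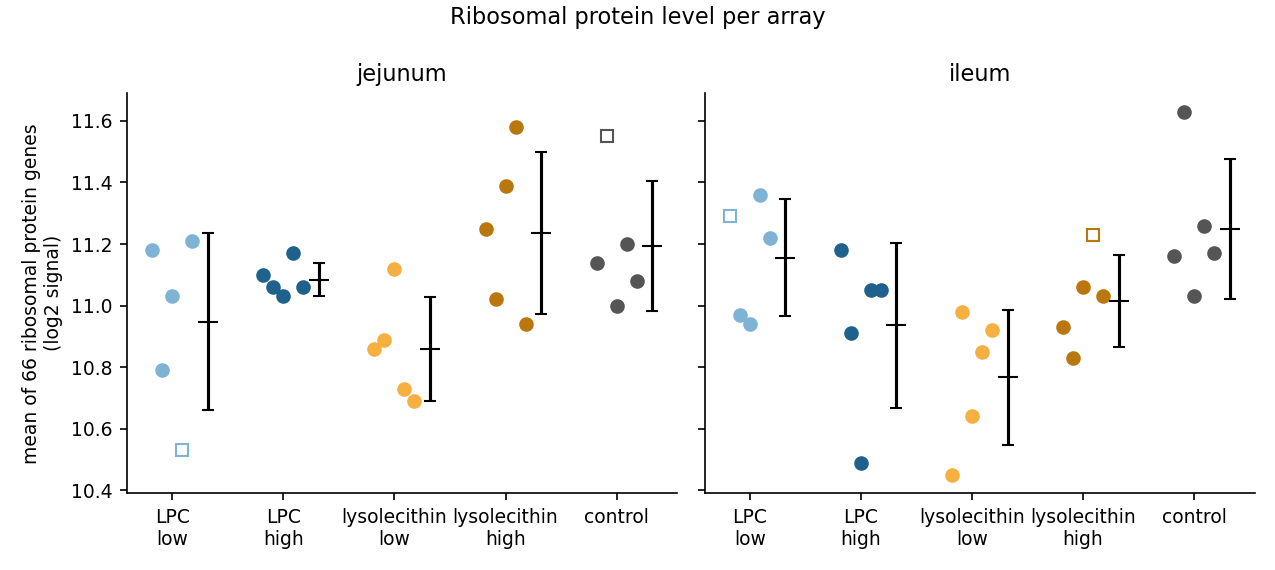
Mean log2 signal of the 66 ribosomal protein genes per array, by diet, in jejunum (left) and ileum (right). Points are birds, open squares are the 4 arrays whose segment score went against their label, and the bars give the mean and SD of 5 birds. Ileum arrays of lysolecithin low birds all lie below the ileum control arrays.

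Ribosomal protein signals were lower in the ileum of birds fed lysolecithin low. All 66 members were lower than in control, with a median of -0.51 (0.704-fold) and a range of -0.71 to -0.03, while the median over all probe sets was 0.02. Limma called 12 of the 66 members lower (18.2%) and none higher, against 0.875% of all probe sets called in either direction and 0.427% called lower. Without adjustment, 62 members had p under 0.05, against 14.2% of all probe sets. In 29 members every lysolecithin low bird lay below every control bird, against 1.49% of all probe sets. Among 1174 other probe sets with means above 10, the median difference was 0.01, 48.0% were negative and 2.64% were called either way. The part of signal level in the shift was not tested. The members were chosen with earlier results of these data known, so these counts describe the list. Pairs of members had a median correlation of 0.74 in ileum, against 0.0 over all genes. Counts of members, here and below, are therefore not counts of independent genes.

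All 35 large-subunit genes were lower, with a median of -0.52, and 7 were called, against 0.427% of all probe sets called lower. RPL3, which lies near the centre that forms the peptide bond, had signals of 10.77, 11.28, 11.06, 11.09 and 11.27 in lysolecithin low birds, against 11.47, 12.09, 11.56, 11.67 and 11.78 in control birds. The groups did not overlap, and the difference was -0.62 ± 0.13 (SE, adjusted p = 0.0229). RPL5, which carries the 5S ribosomal RNA into the large subunit, had 9.80, 10.71, 10.39, 10.49 and 10.69 in lysolecithin low birds, against 10.99, 11.63, 10.94, 11.10 and 10.96 in control birds. Replicate 1 on lysolecithin low was far below its group and replicate 2 on control far above its own, and the groups stayed apart at -0.71 ± 0.17 (SE, adjusted p = 0.0499). Its partner in the 5S particle, RPL11, had 11.31, 11.47, 11.36, 11.62 and 11.58 in lysolecithin low birds, against 11.85, 12.20, 11.79, 11.92 and 11.82 in control birds. All 5 treated birds were again below all 5 controls, with a difference of -0.45 ± 0.10 (SE, adjusted p = 0.0383). A second RPL11 probe set, with a mean of 11.43, also had -0.45 and was not called (adjusted p = 0.0737). RPL17, which lines the tunnel through which the new peptide leaves, fell by 0.50 ± 0.12 (SE, adjusted p = 0.0431). RPL7, RPL6 and RPL37A fell by 0.66, 0.58 and 0.45 on the log2 scale (adjusted p 0.0307 to 0.0499).

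All 22 small-subunit genes were lower, with a median of -0.46, and 4 were called, against 0.427% of all probe sets called lower. RPS15A, a protein of the body of the small subunit, had 11.01, 11.43, 11.07, 11.27 and 11.44 in lysolecithin low birds, against 11.80, 12.23, 11.69, 11.73 and 11.75 in control birds. No bird overlapped, and the difference of -0.60 ± 0.12 (SE, adjusted p = 0.0224) had the lowest p of the members. A second RPS15A probe set, with a mean of 10.93, had -0.35 and was not called (adjusted p = 0.149). RPS4Y1 carries here the symbol of a Y-linked human copy of the small-subunit gene RPS4, although birds have no Y chromosome. Its signals were 10.61, 11.18, 10.85, 11.12 and 11.19 in lysolecithin low birds, against 11.50, 12.16, 11.46, 11.77 and 11.60 in control birds. That gap came to -0.71 ± 0.15 (SE, adjusted p = 0.0239), again with no overlap. RPS16, whose tail reaches the tRNA, fell by 0.51 and RPS20, a protein of the subunit's head, by 0.54 on the log2 scale (adjusted p = 0.0436 and 0.0472). RPS20 was the one called gene whose groups overlapped, with 12.28 in a lysolecithin low bird and 12.18 in a control bird.

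Several well-known ribosomal proteins had differences of similar size that missed the threshold. RPS6, the classic substrate of the S6 kinase, had a difference of -0.53 ± 0.13 (SE, adjusted p = 0.0608). RPS3, which lies where the messenger RNA enters, had -0.56 ± 0.16 (SE, adjusted p = 0.0953), and RPS27A had -0.37 ± 0.11 (SE, adjusted p = 0.102). None of the stalk genes passed. The difference was -0.65 ± 0.22 for RPLP0, the stalk's scaffold, and -0.57 ± 0.16 and -0.39 ± 0.13 for RPLP1 and RPLP2, the paired proteins bound to it (SE, adjusted p = 0.156, 0.0882 and 0.143). Paralogues split. RPL26L1, a copy of RPL26, was called at -0.64 ± 0.15 (SE, adjusted p = 0.0436), and RPL39L, known in mammals from the testis, had -0.55 ± 0.14 (SE, adjusted p = 0.0642). RPL22L1 and its parent RPL22 had -0.52 ± 0.18 and -0.46 ± 0.16 (SE, adjusted p = 0.17 and 0.161). RPS27L, RPL7L1 and RPL3L showed differences of only -0.07, -0.03 and -0.03. The probe sets of RPL26L1 and RPL39L were bright (means 11.24 and 11.31). Whether they also read RPL26 and RPL39, which were not analysed here, was not tested.

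**Figure D3:**
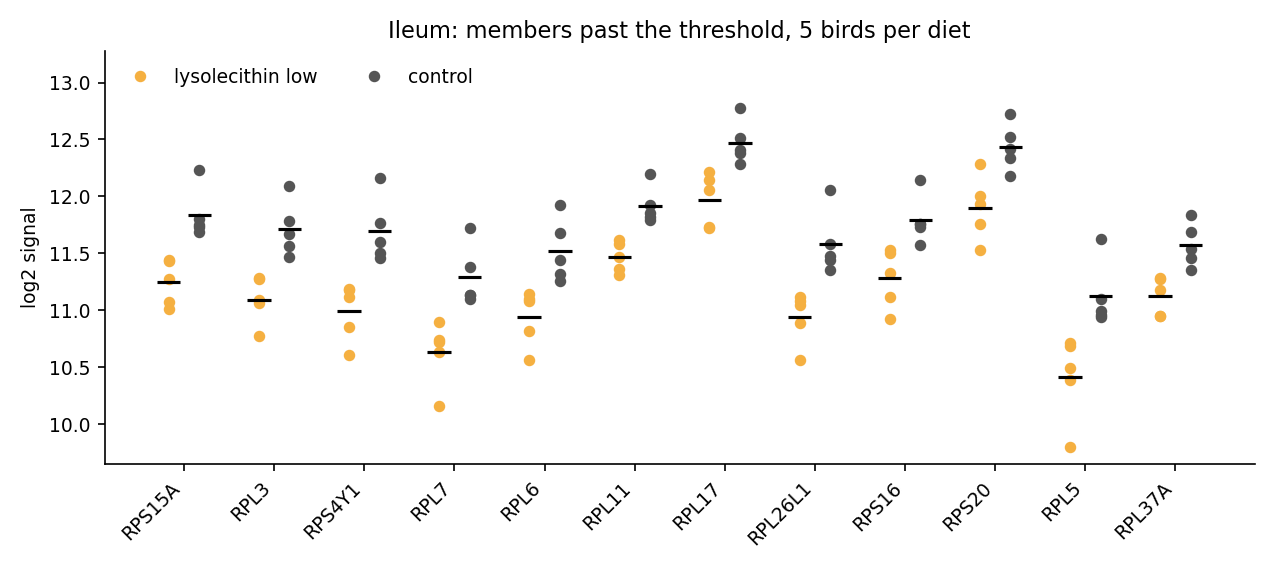
Log2 signal in ileum of the 12 ribosomal protein genes past the threshold in lysolecithin low against control, ordered by p. Points are birds (orange lysolecithin low, grey control, 5 each) and black lines are group means. Lysolecithin low birds lie below control birds throughout, with an overlap in RPS20 alone.

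The 12 calls lay close to the threshold, with adjusted p between 0.0224 for RPS15A and 0.0499 for RPL5, and single birds decided them. No member was called without control replicate 2, 3 or 4 or without lysolecithin low replicate 1, 1 was called without lysolecithin low replicate 3 or 5, and 25 were called without control replicate 5. The share of all probe sets called was not computed for these fits, so their counts cannot be set against it. The members' median stayed between -0.56 and -0.38 over these fits. Members were not called by their second probe set in any of 34 genes (median -0.33), and of all 73 further member probe sets 49 were lower (median -0.14, none called). The 16 of these with means above 9 were all lower (median -0.47). Within batches the median was -0.68 in batch 1 (2 birds each), -0.41 in batch 2 (2 birds each) and -0.23 in batch 3 (1 bird each). Without the arrays in doubt, none of which is in these groups, 15 members were called, the 12 among them, against 1.39% of all probe sets.

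No gene of the cell type marker lists was called in the same comparison, but some lists differed in level. VIM, a gene of fibroblasts and other mesenchymal cells read in another list, was called lower at -1.51 ± 0.29 (SE, adjusted p = 0.0175). The mean of 6 fibroblast markers ran between 5.23 and 5.89 in the ileum of lysolecithin low birds, against 6.10 to 7.42 in control birds, without overlap, and 5 of the 6 were lower with none called (median -1.36). The mean of 11 crypt and proliferation markers ran 5.35 to 5.93 in lysolecithin low birds and 5.59 to 6.94 in control birds, with 8 lower and none called. Enterocyte markers were higher in 9 of 10 genes with none called, at 12.22 to 12.50 in lysolecithin low birds and 11.64 to 12.27 in control birds. Macrophage and goblet cell markers had medians of 0.05 and 0.02. Of 4 goblet cell markers 1 was lower, MUC2, at -1.18 ± 0.33 (SE, adjusted p = 0.0845). Smooth muscle markers had a median of -0.16, with 4 of 6 lower. On LPC low the fibroblast median was -1.19 beside a ribosomal protein median of -0.10. These 2 medians were -1.55 and -0.36 on LPC high, and -0.52 and -0.24 on lysolecithin high. The 5′ minus 3′ index was -0.70 ± 0.14 in lysolecithin low and -0.80 ± 0.14 in control birds (SD, n = 5 each). The part of the marker levels in the ribosomal protein result was not tested. The index was a covariate in an alternative fit, which called fewer members.

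Against the same ileum controls the other diets gave lower member medians but no call. LPC high had a median of -0.36 with 65 of 66 members lower, 51 of them with unadjusted p under 0.05 and none past adjustment, against 9.97% and 0% of all probe sets. RPS28, at the side of the small subunit where the messenger leaves, had 10.98, 10.41, 10.13, 10.92 and 10.63 in LPC high birds, against 11.07, 11.56, 11.01, 11.24 and 11.22 in control birds. These groups just failed to meet, at -0.67 ± 0.16 (SE, adjusted p = 0.202), and RPL30 was the other of the 2 members without overlap, against 1.14% of probe sets. RPL3 and RPL22L1 differed by -0.55 ± 0.13 and -0.67 ± 0.18 (SE, adjusted p = 0.202 and 0.245), and RPL31 by -0.50 ± 0.14 (SE, adjusted p = 0.254). Fibroblast markers averaged 5.20 to 5.98 in LPC high birds and 6.10 to 7.42 in control birds. Their part was not tested here either. Within batches 1, 2 and 3 the LPC high medians were -0.34, -0.69 and -0.10.

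Lysolecithin high had an ileum median of -0.24 with 64 members lower, 16 with unadjusted p under 0.05 and none called, against 8.96% and 0.216% of probe sets. Without the arrays in doubt the median was -0.26 with none called, against 0.0365%. RPL31, RPL26L1 and RPS28 had the lowest p, with differences of -0.43 ± 0.14, -0.48 ± 0.15 and -0.48 ± 0.16 (SE, adjusted p 0.269 to 0.311), followed by RPL36 at -0.45 ± 0.16. LPC low was nearest to control, with a median of -0.10, 61 members lower, none with unadjusted p under 0.05 and none called, against 12.1% and 0.0313% of probe sets. Its median was -0.13 without the arrays in doubt, and again no member was called, while 2.04% of probe sets were. Its members with the lowest p were RPS3A, RPL32, RPS28 and RPL3, with differences between -0.25 and -0.19. An F-test over all diets called no member in ileum, against 0.138% of probe sets. In that test 52 members had unadjusted p under 0.05, against 14.6% of probe sets, and RPL3 came closest with an adjusted p of 0.0742.

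**Figure D4:**
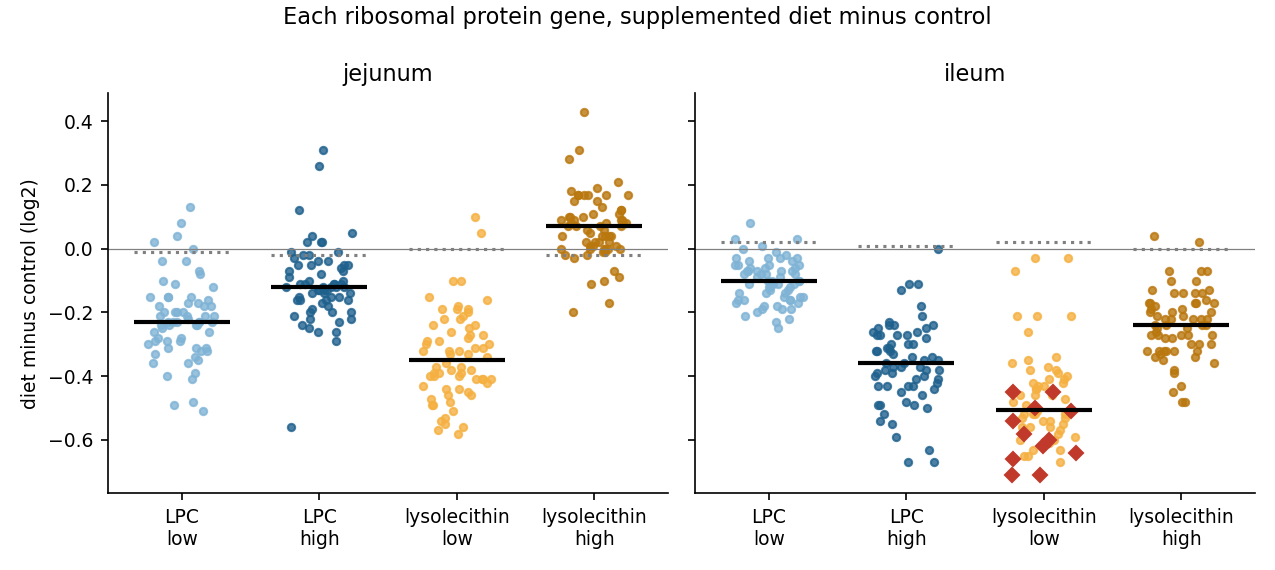
Difference from control (log2) of each of the 66 ribosomal protein genes on each supplemented diet, in jejunum (left) and ileum (right). Points are genes, red diamonds the 12 past the threshold, black bars the members' medians and dotted bars the medians over all probe sets. The medians are -0.23, -0.12, -0.35 and 0.07 in jejunum and -0.10, -0.36, -0.51 and -0.24 in ileum, and the 4 comparisons in a panel share their controls.

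In the jejunum no diet changed a ribosomal protein gene past the threshold. Lysolecithin low again had the lowest median, -0.35, with 64 of 66 members lower and 39 with unadjusted p under 0.05, against 0.0495% of all probe sets called and 8.92% with unadjusted p under 0.05. RPS7, a small-subunit protein that also takes part in processing the ribosomal RNA, had 11.12, 11.28, 11.50, 10.79 and 10.96 in lysolecithin low birds, against 11.64, 11.90, 11.53, 11.75 and 11.46 in control birds. One treated bird reached into the control range, and the difference was -0.53 ± 0.13 (SE, adjusted p = 0.141). RPS15A, RPL11 and RPL26L1 differed by -0.58 ± 0.14, -0.40 ± 0.12 and -0.49 ± 0.15 (SE, adjusted p = 0.143, 0.235 and 0.28). RPL12, RPL17, RPL23 and RPL26L1 were the 4 members without overlap between the groups, against 0.612% of probe sets. The 5′ minus 3′ index was -0.66 ± 0.16 in lysolecithin low and -0.97 ± 0.14 in control birds (SD, n = 5 each). It was a covariate in an alternative fit, and its part as a cause was not tested. Without jejunum control replicate 2 and the other arrays in doubt, the median was -0.28 and no member was called.

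LPC low had a jejunum median of -0.23 with 62 members lower, 10 with unadjusted p under 0.05 and none called, against 8.56% and 0.00261% of probe sets. That value rested in part on arrays in doubt, for without them the median was -0.05 with 18 members higher. Within batches 1, 2 and 3 the medians were -0.13, -0.20 and -0.23. Batch 2 (2 birds each) held none of the arrays in doubt and had 61 of 66 members lower. RPL12, which sits at the base of the stalk, had the lowest p, at -0.51 ± 0.16 (SE, adjusted p = 0.382), and its lowest LPC low signal, 10.38, came from the doubted replicate 4. RPL38, RPL37 and RPLP1 followed at -0.24 ± 0.08, -0.32 ± 0.13 and -0.48 ± 0.20 (SE, adjusted p 0.41 to 0.53). LPC high had a median of -0.12 (-0.06 without the arrays in doubt), with 1 member at unadjusted p under 0.05, RPL22L1 at -0.56 ± 0.24 (SE, adjusted p = 0.401), and none called, against 10.9% and 0.112% of probe sets. RPS15A, RPS15 and RPL17 came next, at -0.26, -0.25 and -0.23. Lysolecithin high was the one diet with a positive median, 0.07 (0.12 without the arrays in doubt), with 51 members higher, none with unadjusted p under 0.05 and none called, against 17.8% and 0.829% of probe sets. RPL4, which also lines the exit tunnel, had 0.31 ± 0.16 and RPS2, a small-subunit protein near the messenger's path, 0.43 ± 0.22 (SE, adjusted p = 0.312 and 0.318), while RPS27L had -0.20 ± 0.12 and RPL7L1 0.13 ± 0.09. The F-test over diets called none of the members in jejunum (28 with unadjusted p under 0.05), against 0.13% of probe sets called and 13.8% with unadjusted p under 0.05.

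Lysolecithin and purified LPC were compared at matched LPC in 4 pairs, and none separated a member past the threshold. At 9.5 g/T in ileum the median of lysolecithin minus LPC was -0.39, with 65 members lower, 51 with unadjusted p under 0.05 and none called, against 12.6% and 0.0365% of probe sets. In 16 members the groups did not overlap, against 0.696% of probe sets. RPS16 had 10.92, 11.53, 11.12, 11.33 and 11.50 in lysolecithin low birds, against 11.90, 11.56, 11.61, 11.89 and 11.79 in LPC low birds. Every lysolecithin bird was below every LPC bird, with a difference of -0.46 (95% interval -0.71 to -0.21, adjusted p = 0.108). For RPS6 the interval was -0.78 to -0.22, for RPL10A, part of the mobile L1 stalk, -1.02 to -0.28, and for RPL5 -0.94 to -0.22 (adjusted p 0.12 to 0.156). RPL8, near the peptide-joining centre, differed by -0.57 ± 0.15 (SE, adjusted p = 0.122). Without ileum LPC low replicate 1, in doubt, and the other such arrays, the median was -0.36 and none was called.

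At 9.5 g/T in jejunum the median was -0.13, with 60 members lower, 1 with unadjusted p under 0.05 and none called, against 5.21% and 0% of probe sets. Without the arrays in doubt the median was -0.20 with 2 members higher and none called. RPS7 had the lowest p, at -0.28 (95% interval -0.54 to -0.01, adjusted p = 0.941), and RPS15A, RPS27L and RPL6 followed at -0.27, -0.23 and -0.28. At 19 g/T the direction was the other way in either segment. In jejunum 63 members were higher on lysolecithin (median 0.16, 2 with unadjusted p under 0.05, none called, against 6.11% and 0% of probe sets), and in 1 member the groups did not overlap, against 0.409% of probe sets. RPL22L1 led with 0.73 (95% interval 0.22 to 1.23, adjusted p = 0.797), followed by RPL19, RPL27 and RPL31 at 0.20, 0.19 and 0.33. In ileum 65 members were higher (median 0.12, or 0.09 without the arrays in doubt, none with unadjusted p under 0.05, none called, against 3.48% and 0% of probe sets). RPL22L1 had 0.35 (95% interval -0.03 to 0.73, adjusted p = 0.998), and RPL3, RPL19 and RPS10 had 0.25, 0.18 and 0.20.

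The high level of either product against the low level gave a median of 0.28 in jejunum, with 65 of 66 members higher. No member was called and 46 had unadjusted p under 0.05, against 0% and 14.8% of all probe sets. RPL38, which in mouse affects the translation of Hox messengers, had 12.86, 12.67, 13.02, 12.88 and 12.80 on LPC high and 12.96, 12.93, 12.98, 13.14 and 12.87 on lysolecithin high. On the low level it had 12.77, 12.71, 12.70, 12.43 and 12.83 with LPC and 12.78, 12.71, 12.80, 12.64 and 12.67 with lysolecithin. The lysolecithin high birds were above all low-level birds and the LPC high birds overlapped with them, for a difference of 0.21 (95% interval 0.09 to 0.33, adjusted p = 0.152). RPL27A, RPS16 and RPL29 had 0.41, 0.30 and 0.48 (adjusted p 0.169 to 0.172). The median was 0.22 without the arrays in doubt, with none called. Cell type marker lists went both ways in the same comparison, with none called. Medians were 1.6 for fibroblasts (5 of 6 higher), 1.12 for macrophages (5 of 6) and 0.72 for red cells (2 of 2). They were 0.67 for smooth muscle (6 of 6), 0.39 for crypt and proliferation (10 of 11), 0.23 for T cells and 0.03 for B cells. Negative medians were -0.29 for goblet cells (4 of 4 lower), -0.17 for enteroendocrine cells (4 of 5), -0.12 for pancreas (3 of 4) and -0.07 for enterocytes (6 of 10). Fibroblast markers averaged 6.37 to 8.18 on LPC high and 5.98 to 8.58 on lysolecithin high, against 5.10 to 7.57 on LPC low and 5.41 to 6.65 on lysolecithin low, and the part of these markers was not tested. In ileum the median of high minus low was -0.01 with and without the arrays in doubt, with 30 members higher, none with unadjusted p under 0.05 and none called, against 11.1% and 0% of probe sets. The segments' level effects were not tested against each other. RPS28, RPL4, RPL31 and RPL37 had the lowest p there, between -0.22 and 0.17.

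Ribosomal protein genes differed little between the segments. Compared within the 25 birds, jejunum minus ileum had a median of 0.03 and a range of -0.21 to 0.22. In all, 4 members were called (3 higher and 1 lower in jejunum), against 19.7% of all probe sets called either way, 9.92% higher and 9.8% lower. Among 1174 other probe sets with means above 10, 46.4% were called either way. RPS27L was lower in jejunum, where it ran from 11.75 with a median of 12.19 to 12.48, against 11.85, 12.38 and 12.62 in ileum. It was lower in the jejunum of 20 of 25 birds, although the segments' ranges overlapped, by a difference of -0.21 ± 0.05 (SE, adjusted p = 0.00377). RPL7L1, a relative of RPL7 that acts in ribosome assembly, ran from 9.68 with a median of 10.10 to 10.43 in jejunum, against 9.70, 9.96 and 10.27 in ileum. It was higher in the jejunum of 23 birds, by 0.16 ± 0.04 (SE, adjusted p = 0.00281). RPL27, a large-subunit protein, had a difference of 0.16 ± 0.05 and was higher in 18 birds (SE, adjusted p = 0.0165). RPL23, which can bind the p53 regulator MDM2 in human cells, had 0.16 ± 0.06, also in 18 birds (SE, adjusted p = 0.0494), and its call was lost without any of 19 of the 25 birds, taken in turn. Like RPS27L, RPL7L1 is a paralogue, and its correlation with the mean of the other members was 0.59 in jejunum and 0.41 in ileum.

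The doubted arrays weighed on this comparison. Without them 18 members were called, 17 of them higher in jejunum, at a median of 0.06 and against 23.6% of all probe sets, and without LPC low replicate 4 alone the count was also 18. It was 8 without LPC low replicate 1 and 6 without LPC low replicate 2 or control replicate 2. For fits without a single bird the share of all probe sets called was not computed. The 18 called without the arrays in doubt included RPL12, RPS12 and RPS6, whose difference with all arrays, 0.16 ± 0.06, had an adjusted p of 0.0566.

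**Figure D5:**
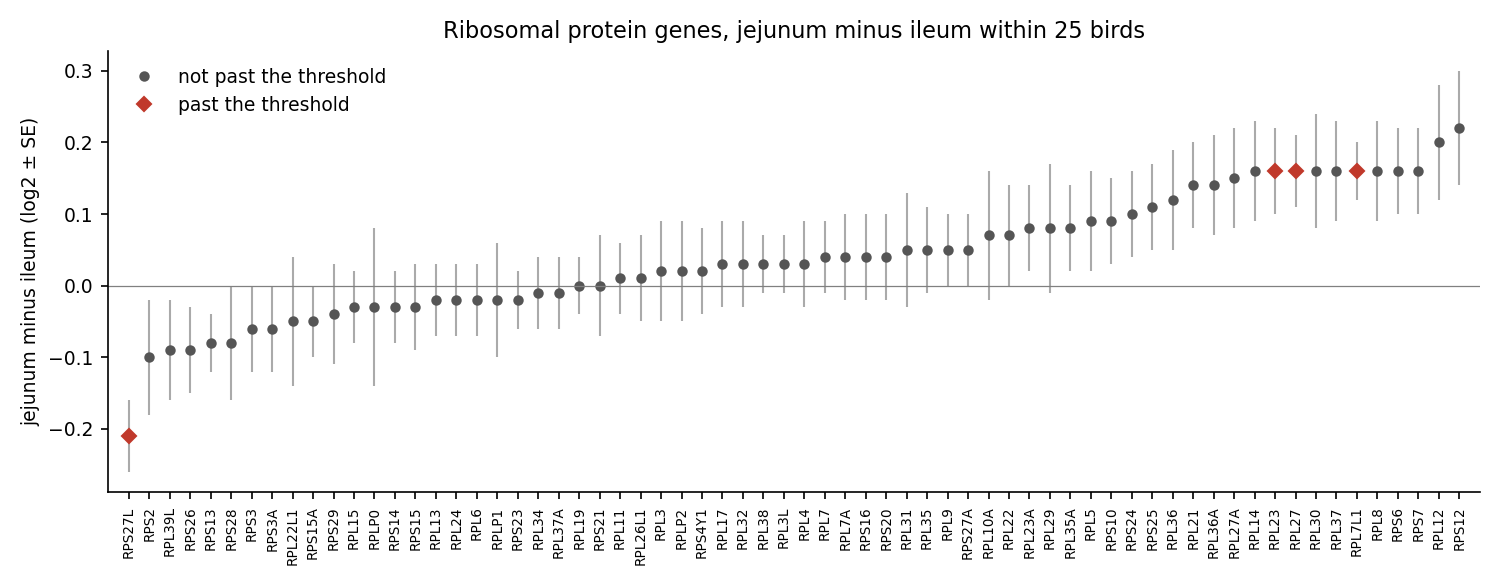
Jejunum minus ileum difference (log2) of the 66 ribosomal protein genes within 25 birds, ordered by size. Points are fitted differences, bars are SE and red diamonds are the 4 genes past the threshold. All values lie between -0.21 and 0.22.

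Whether a diet acted differently in the segments was tested on the difference between the segments within each bird. No member passed for any diet, where 0% of all probe sets did, and the F-test over diets called none of the members, with 20 at unadjusted p under 0.05, against 0.00521% of probe sets called and 10.3% at unadjusted p under 0.05. The median over members was -0.13 for LPC low, 0.25 for LPC high, 0.13 for lysolecithin low and 0.31 for lysolecithin high. Without the arrays in doubt these medians were 0.01, 0.23, 0.13 and 0.23 in the same order. Unadjusted p was under 0.05 for 0 members on LPC low, 9 on LPC high, 3 on lysolecithin low and 21 on lysolecithin high. The shares of all probe sets were 5.58%, 7.5%, 5.05% and 11.2% in the same order. RPS3 and RPL26L1 had the lowest p, both for lysolecithin high, at 0.52 ± 0.16 and 0.48 ± 0.15 (SE, adjusted p = 0.333 each), and RPL7 led for lysolecithin low with 0.38 ± 0.14 (SE, adjusted p = 0.963). The lysolecithin low calls in ileum, and their absence in jejunum, were therefore not separated by a test of the difference.

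The rest of the translation machinery was read from 4 lists in the ileum of lysolecithin low birds. Of 32 measured genes for translation factors and other TOP messengers, 28 were lower (median -0.40) and 4 were called, all lower, against 0.427% of all probe sets called lower. EEF1D and EEF1B2, which recharge elongation factor 1A with GTP, fell by 0.77 ± 0.15 and 0.75 ± 0.17 (SE, adjusted p = 0.0184 and 0.043), and EIF3H, a subunit of the initiation factor that binds the small subunit, fell by 0.64 ± 0.15 (SE, adjusted p = 0.0436). The fourth, VIM, fell by 1.51 ± 0.29 (SE, adjusted p = 0.0175), and codes for vimentin, an intermediate filament of fibroblasts and other mesenchymal cells. Of 60 ribosome biogenesis genes 41 were lower, none called, at a median of -0.11, and DDX27, an RNA helicase, RSL1D1 and POLR1D, a polymerase I subunit, had the lowest p at 0.71 ± 0.18, -0.52 ± 0.21 and 0.23 ± 0.10 (SE, adjusted p 0.0639 to 0.303). Among 29 genes of mTORC1 and translation control 25 were lower, none called, at a median of -0.10, led by PDCD4, EIF4EBP1 and EIF4G3 at -0.73 ± 0.22, -0.36 ± 0.14 and -0.30 ± 0.12 (SE, adjusted p 0.106 to 0.26). The 67 mitochondrial ribosomal protein genes, which serve the separate ribosome of that organelle, had 53 lower, none called, and a median of -0.10.

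The mitochondrial ribosomal proteins also differed between the segments. In jejunum against ileum 29 of 67 were called, all higher (median 0.13), where 9.92% of all probe sets were called higher, against 3 of 66 cytosolic members. They were not alone in this. Also called higher were 15 of 60 ribosome biogenesis genes (2 lower), 8 of 29 of mTORC1 and translation control (0 lower) and 5 of 32 translation factors and other TOP messengers (1 lower). Calls were more frequent among bright probe sets. Of 1174 with means above 10, cytosolic members left out, 46.4% were called either way. Among the 29 called mitochondrial genes MRPL28 alone, with a mean of 10.09, was as bright as that. Without the arrays in doubt 37 of the 67 mitochondrial genes were called, all higher (median 0.17), against 17 of 66 cytosolic members called higher. In that fit 23.6% of all probe sets were called either way. On lysolecithin high in jejunum 62 of the 67 were above control (median 0.26) and 2 were called, against 0.829% of all probe sets. These were MRPL46 at 0.61 ± 0.12 and MRPL15 at 0.99 ± 0.21 (SE, adjusted p = 0.0197 and 0.0274), while the cytosolic members had a median of 0.07. Without the arrays in doubt the same 2 were called, and the median was 0.31. In the ileum of lysolecithin low birds the medians were -0.51 for cytosolic and -0.10 for mitochondrial ribosomal proteins. Differences between the families were not tested.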

How the data were processed

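The authors deposited log2 values, 1 per probe set and array, made with RMA, which equalises the arrays' distributions, so differences are relative to the bulk of the array. The submitters' processing notes name RMA and limma without versions, and a genome build is not given in the sources used here. After 153 of the 38535 probe sets had been set aside as controls, 38382 entered the tests, dim ones included. Values ran from 1.84 to 13.99. The 25 arrays of a segment were fitted in limma 3.58.1 (R 4.3.3) with diet and batch as terms. The segment comparison took the bird as a block, as the labels give both arrays of a pair the same bird number, and diet effects between segments on each bird's difference. Adjusted p is Benjamini-Hochberg over all 38382 probe sets, with a threshold of 0.05. The fit was tested on simulated data with independent noise for each probe set, which does not cover genes that move together as the members do. Replicates are separate birds, and their number limits the precision.

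The members and gene lists were chosen with earlier results of these data known. Members named are the 4 with the lowest p in a comparison, up to 6 each way called between segments, and a set of stalk, 5S, kinase-target and paralogue genes; of the other lists, the 3 with the lowest p. The alternatives varied the batch term, the covariates, the array weights, the centring, the probe sets (brighter, or the second of a gene) and the arrays (both segments together, 2 groups alone, 1 bird less, none in doubt).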

Additional observations from a re-analysis of the deposited data

Results flagged for a closer look

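Of 52 sets of 5 values tested for a value that stands far from the rest (Dixon's test), 3 were picked out, and chance picks about 1 in 20. The sets were the mean of members and the index in each group, and signals of single members in lysolecithin low and control. They share arrays, so the picks are not independent. In ileum control, replicate 2 had the highest RPL5 signal, 11.63, and the highest RPS15A signal, 12.23, each far above the other 4 birds. The same array had the highest mean over members, 11.63. In ileum control the 5′ minus 3′ index of replicate 5 was the lowest, at -1.04. All 3 values lie in the group against which the ileum diets were compared. Leaving out either bird moved the number of members called in lysolecithin low, to 0 without replicate 2 and 25 without replicate 5. The share of all probe sets called in these 2 fits was not computed.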

How the results depend on the processing

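The median over members of the LPC low segment difference changed sign, from -0.13 to 0.01 without the arrays in doubt. Followed through the alternatives were the 4 members with the lowest p in each comparison and those called. None of their differences changed sign on its own probe set, although further probe sets of a gene did not always share its sign. The count of 12 members lower in the ileum on lysolecithin low was 0 with only the groups compared and 0 by the second probe sets, 1 when batch was dropped and 1 when it was a random block, 5 with the 5′ minus 3′ index as a covariate or with arrays centred on their median, 22 with the segment score as a covariate, 22 when all 50 arrays were fitted with a random replicate block for the bird, and 33 among brighter probe sets, where fewer were tested. Leaving out 1 bird at a time it ranged from 0 to 25. For the second probe sets fewer members had a value; otherwise the cause was not tested. The F-test over ileum diets, with none called, gave 5 with array weights and 1 with the bird as a random replicate block or among brighter probe sets (0 to 2 leaving out a bird). Array weights gave 1 for ileum LPC high and 2 for jejunum lysolecithin low, and the index gave 2 for jejunum high minus low level. The ileum lysolecithin low minus LPC low median of -0.39 was -0.17 by second probe sets, and its count was 0 to 3 leaving out a bird. The 4 members called between segments became 10 with array weights, 8 among brighter probe sets and 18 without the arrays in doubt (3 to 18 leaving out a bird, and 3 with no replicate block). A median counted as staying when it shifted by less than 0.2, or 0.23 in comparisons between segments, the mean SD between replicate birds. By that rule 421 medians stayed and 1 moved, although some medians were themselves smaller than that spread. The jejunum LPC low median, at -0.05 without the arrays in doubt against -0.23, counted as staying. So did the change of sign named above. Of counts 496 stayed and 29 moved. Apart from the fit without the arrays in doubt, the share of all probe sets called was not computed for the alternatives. Their counts therefore do not separate a change in the members from a change in calls over all probe sets.

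With 5 birds per diet, most members' differences did not pass adjustment. RMA hides a change shared by most transcripts. Pens, cell makeup and diet cannot be told apart, and 4 arrays are open to doubt.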
